A study of Mus musculus with 6 samples.

Results

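Long-term haematopoietic stem cells (LT-HSC) carrying NPMc+ together with Flt3-ITD were compared across all measured genes with LT-HSC of the MxCre reference. RNA was sequenced from 2 libraries of each genotype, called NPMc_Flt3ITD and Mx below. The genes described are the 12400, of 17997 in the table, with at least 1 normalised CPM, a read count scaled to library size, in at least 2 of these 4 libraries. The NPMc_Flt3ITD libraries carry the genotype label NPMc+/FLt3-ITD and the Mx libraries the label MxCRE, which the series names as its control. Another genotype with 2 libraries, labelled Flt3-ITD, shared the fit and is given where it separates the mutants. All mice were C57BL/6 and 8 to 11 weeks old, and 3000 to 7000 LT-HSC were sorted per sample from crushed limb bones and sternum. The libraries were made from polyadenylated RNA by a SMART-seq protocol. The sources used here do not give the sort markers, any Cre-inducing treatment, whether animals were pooled, the promoter that drives the NPMc+ allele, or whether the mutant mice carry MxCre too.

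LT-HSC sit at the top of the blood lineages and spend most of their time out of cycle. FLT3 is a cytokine receptor tyrosine kinase of early progenitors. Its internal tandem duplication (ITD) keeps the kinase active and is known to engage STAT5 as well as the ERK and PI3K branches. NPM1 is a nucleolar protein that shuttles to the cytoplasm, and NPMc+ denotes leukaemia mutants that accumulate there. Both lesions are frequent in human acute myeloid leukaemia and often occur together.

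The recovered read totals were 27599145 and 37038893 in NPMc_Flt3ITD, 15618802 and 33346210 in Flt3ITD and 27088450 and 19287765 in Mx, in the order of replicates 1 and 2, which is kept for all paired values below. Reads of the ribosomal precursor Rn45s made up 15.7% to 25.1% of a library. The libraries were not matched for sex-linked RNA. Xist, which is transcribed from the inactive X of female cells, had 259 and 625 CPM in NPMc_Flt3ITD, with 37.2 and 547 CPM in Flt3ITD, against 1007 and 1038 CPM in Mx. Ddx3y, a Y-linked helicase, had 61.1 and 46.9 CPM in NPMc_Flt3ITD, with 63.6 and 32.8 CPM in Flt3ITD, against 20.4 and 24.8 CPM in Mx. Against Mx its adjusted p was 0.132 in limma, the test described below, and 0.0201 with replicate number as a block, and that of the Y-linked Eif2s3y was 0.0644 and 0.00189. Xist and Ddx3y were present in all 6 libraries, with less Xist and more Ddx3y in both NPMc_Flt3ITD libraries than in either Mx library, so the share of cells of each sex and the genotype cannot be told apart. Of 396 X-linked genes 1.26% passed the test described below, against 1.21% of 11115 autosomal genes, and the called X-linked genes were Bex4, Fhl1, Hprt, Nhsl2 and Xlr4c. Among 884 symbols that could not be placed on a chromosome 1 was called higher and 7 lower.

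The sort label was checked against 10 defining LT-HSC genes. All 10 were above 1 CPM in every library of both genotypes, so none was absent. Kit, the stem cell factor receptor, had 798 and 567 CPM in NPMc_Flt3ITD, against 689 and 716 CPM in Mx. Hlf, a transcription factor of stem cells, had 114 and 164 CPM in NPMc_Flt3ITD, against 249.5 and 256 CPM in Mx (limma adjusted p = 0.208, and 0.0127 with the block), and Slamf1, the SLAM receptor CD150, had 62.3 and 26.5 CPM in NPMc_Flt3ITD, against 72.7 and 58.9 CPM in Mx. The libraries of the 2 genotypes overlapped for Kit and Slamf1, whereas for Hlf both mutant libraries were lower. Of the 10 genes Tek, Mllt3 and Procr passed the test as lower and are described below.

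Npm1 and Flt3, the mouse genes for NPM1 and FLT3, were not called. Npm1 had 1380.2 and 1691 CPM in NPMc_Flt3ITD, against 1239 and 1594 CPM in Mx, with overlapping libraries and a log2 difference of 0.12 ± 0.27 (SE; limma adjusted p = 0.91). Flt3 had 64.3 and 93.6 CPM in NPMc_Flt3ITD, against 43.6 and 38.3 CPM in Mx. Both NPMc_Flt3ITD libraries were above both Mx libraries, but the log2 difference of 0.91 ± 0.23 (SE) gave a limma adjusted p of 0.13, and of 0.0237 with replicate number as a block. The table counts reads per gene and holds no alleles, so neither value checks the genotype. Since the promoter of the NPMc+ allele is not given, the Npm1 value may not include the mutated copy.

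Fold changes are differences of mean log2(CPM + 1), NPMc_Flt3ITD minus Mx, which understate the change of genes near 1 CPM. A gene was called when its Benjamini-Hochberg adjusted p in limma, over the 12657 genes fitted, was under 0.05. Of the 12400 genes 148 (1.19%) were called, 65 higher (0.524%) and 83 lower (0.669%) in NPMc_Flt3ITD, while 1563 (12.6%) had an unadjusted p under 0.05. The differences were centred on 0, with a median of 0.01, an interquartile range from -0.24 to 0.26 and a 5th to 95th percentile range from -0.98 to 0.75. The typical SE of a gene was 0.29. The smallest called difference was 0.91, and of 905 genes past a difference of 1 in either direction 759 were not called.

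Calls were spread over the whole range of expression. They made up 1.0% of 2195 genes averaging under 5 CPM, 1.37% of 2989 genes from 5 to 20 CPM, 1.13% of 5566 genes from 20 to 100 CPM, 1.42% of 1475 genes from 100 to 500 CPM and 0.571% of the 175 above. The 65 higher genes had a median of 55.2 CPM in NPMc_Flt3ITD, against 10.6 CPM in Mx. For the 83 lower genes the medians were 3.82 CPM in NPMc_Flt3ITD and 29.5 CPM in Mx. Both directions therefore held genes that were well measured in the group where they were high. Of the called genes 6 passed the low-value filter through the NPMc_Flt3ITD libraries alone and 19 through the Mx libraries alone, and these had to differ. Of genes named below, the first include Mcpt8 and Igfbp7. The second include Vpreb3, Ebf1, Rag1, Add2, Rhd, Ndn, Meg3, Neo1 and Pabpc4l.

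**Figure D1:**
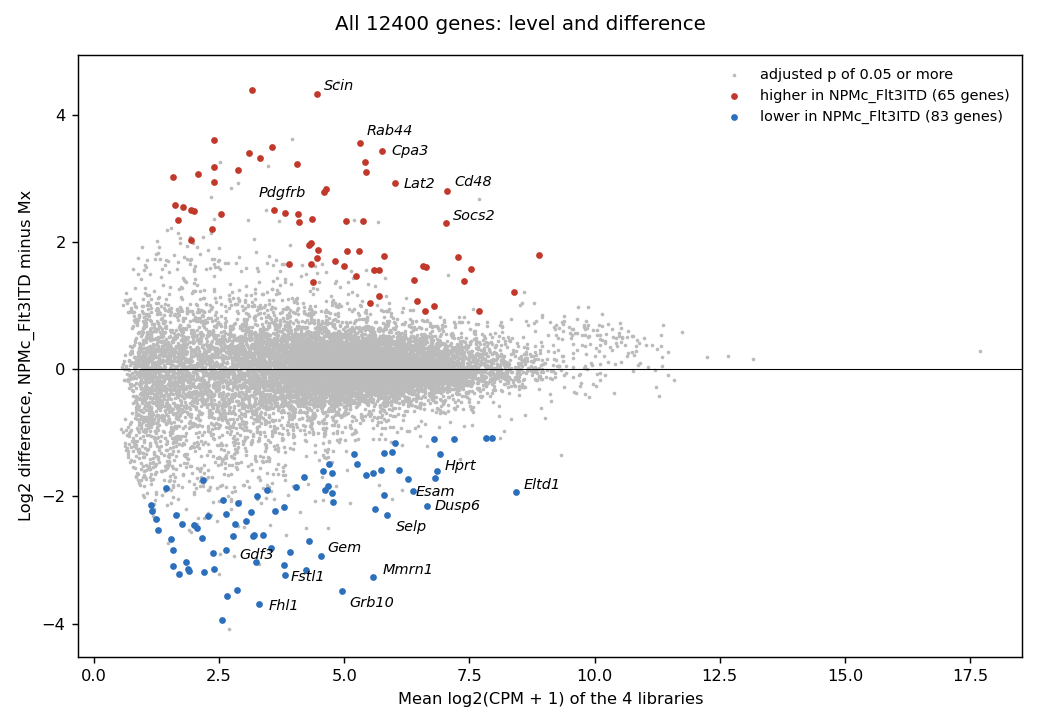
Log2 difference (NPMc_Flt3ITD minus Mx, vertical) against the mean log2(CPM + 1) of the 4 libraries (horizontal) for 12400 genes, each point 1 gene. The 65 genes called higher are red, the 83 called lower are blue, and the 18 that were also called without each of the 4 libraries in turn are named.

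The 2 groups did not overlap for any of the 148 called genes, but neither did they for 42.5% of all 12400. With 1 library left out, the remaining library of its group is assumed to vary like those of the other groups, and fewer genes pass: 42 were called without NPMc_Flt3ITD replicate 1, 20 without NPMc_Flt3ITD replicate 2, 26 without Mx replicate 1 and 44 without Mx replicate 2. All 148 kept their sign in each of these fits. With replicate number as a block the count was 689 (5.56%), 332 higher (2.68%) and 357 lower (2.88%), and included all 148. Rescaling each library to its own CPM sum moved the median of all genes to -0.11 and the share of calls that were higher from 43.9% to 33.0%. No called gene changed sign under any alternative that fitted it. By edgeR's quasi-likelihood test on the recovered reads 104 genes were called, 103 of them shared. Among the genes named below as called, edgeR did not call Apob, Vpreb3, Ebf1, Cecr2, Clca1, Clec1a, Procr, Add2, Rag1, Igfbp7, Dusp4, Jam3, Itgal, Gbp9, Id3, Meg3, Pmaip1 and Ldhb.

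A core of 18 genes was called without each of the 4 libraries in turn. The 7 higher ones were Cd48, Cpa3, Lat2, Pdgfrb, Rab44, Scin and Socs2, and the 11 lower ones were Dusp6, Eltd1, Esam, Fhl1, Fstl1, Gdf3, Gem, Grb10, Hprt, Mmrn1 and Selp. Any other gene given below as called lost its call without at least 1 library. Of the core genes, 5 that lie outside the 20 largest changes and outside all gene lists were picked after their values were seen. Eltd1, an adhesion G protein-coupled receptor of endothelium, had 199 and 156 CPM in NPMc_Flt3ITD, against 675 and 675 CPM in Mx. Fstl1, a secreted glycoprotein, had 4.41 and 3.18 CPM in NPMc_Flt3ITD, against 35.3 and 43.3 CPM in Mx, and Gem, a small GTPase, had 7.07 and 7.63 CPM in NPMc_Flt3ITD, against 59.6 and 65.5 CPM in Mx. Gdf3, a ligand of the TGF-beta family, had 4.26 and 4.97 CPM in NPMc_Flt3ITD, against 37.2 and 43 CPM in Mx. Hprt, a purine salvage enzyme, had 61 and 69.9 CPM in NPMc_Flt3ITD, against 200.1 and 202 CPM in Mx. In each of these 5 genes both NPMc_Flt3ITD libraries were far below both Mx libraries.

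The largest rises included several granule protease genes. Gzmb, granzyme B, a serine protease of cytotoxic lymphocytes and mast cells, had 54.3 and 29 CPM in NPMc_Flt3ITD, against 0.30 and 1.88 CPM in Mx, a log2 difference of 4.39 ± 0.47 (SE; limma adjusted p = 0.00496). Cpa3, the carboxypeptidase of mast cell granules, had 205 and 152 CPM in NPMc_Flt3ITD, against 15.5 and 15.5 CPM in Mx, and differed by 3.43 ± 0.22 (SE; adjusted p = 0.000662), an 11.5-fold ratio of mean CPM. Ctsg, the neutrophil granule protease cathepsin G, had 124 and 138 CPM in NPMc_Flt3ITD, against 7.95 and 20.1 CPM in Mx. In all 3 genes the lowest NPMc_Flt3ITD library was several times the highest Mx library. Gzmb and Ctsg are neighbours on chromosome 14, and so is Mcpt8, a basophil protease, which had 6.32 and 11.4 CPM in NPMc_Flt3ITD, against 0.637 and 0.754 CPM in Mx, and was also called (adjusted p = 0.0229). These 3 proteases are related in sequence, and it is not stated how reads matching several copies were counted.

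The promoters of these 4 granule protease genes are shown because the genes rose together and because each holds the core motif of RUNX factors, TGTGGT or its reverse complement ACCACA, here in capitals. The sequences are RefSeq promoters of build GRCm38.p6, from 250 bases before to 50 bases after the start of the gene, written 5′ to 3′ on the minus strand. Their places are chr14:56262285-56262584 for Gzmb, chr14:56102525-56102824 for Ctsg, chr14:56085148-56085447 for Mcpt8 and chr3:20242132-20242431 for Cpa3.
Gzmb: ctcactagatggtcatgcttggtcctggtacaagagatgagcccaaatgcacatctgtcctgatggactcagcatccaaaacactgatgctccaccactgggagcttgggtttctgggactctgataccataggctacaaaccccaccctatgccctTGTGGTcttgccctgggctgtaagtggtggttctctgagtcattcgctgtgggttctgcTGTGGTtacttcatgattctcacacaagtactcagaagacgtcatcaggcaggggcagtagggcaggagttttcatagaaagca
Ctsg: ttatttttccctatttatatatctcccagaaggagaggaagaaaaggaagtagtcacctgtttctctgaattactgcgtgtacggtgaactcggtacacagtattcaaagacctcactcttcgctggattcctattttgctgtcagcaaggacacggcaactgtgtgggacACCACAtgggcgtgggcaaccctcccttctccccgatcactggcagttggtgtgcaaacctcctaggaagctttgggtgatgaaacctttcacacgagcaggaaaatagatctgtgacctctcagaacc
Mcpt8: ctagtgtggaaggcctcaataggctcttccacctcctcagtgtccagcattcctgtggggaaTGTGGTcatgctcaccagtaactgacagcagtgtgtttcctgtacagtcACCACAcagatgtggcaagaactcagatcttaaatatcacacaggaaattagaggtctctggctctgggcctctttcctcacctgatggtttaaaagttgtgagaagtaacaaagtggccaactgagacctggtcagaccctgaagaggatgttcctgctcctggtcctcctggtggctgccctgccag
Cpa3: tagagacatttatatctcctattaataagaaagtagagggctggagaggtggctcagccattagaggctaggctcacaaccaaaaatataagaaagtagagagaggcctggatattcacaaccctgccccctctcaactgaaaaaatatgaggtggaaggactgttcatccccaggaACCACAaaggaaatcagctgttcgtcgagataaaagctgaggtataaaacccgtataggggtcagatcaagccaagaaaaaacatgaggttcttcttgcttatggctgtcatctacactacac

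TGTGGT on either strand was found in 14 of the 46 higher genes with a promoter in that table (30.4%), in 8 of 53 lower genes (15.1%) and in 1435 of all 9254 members with a promoter (15.5%). Besides the 4 shown, the higher genes with it included Cd48, Cst7, Nkg7 and Plac8. Of 5 other motifs searched on both strands, the AP-1 motif TGANTCA was in 15.2% of higher, 7.55% of lower and 6.25% of all promoters. The STAT motif TTCNNNGAA was in 13.0%, 7.55% and 8.46% in the same order, among them those of Gzmb and Ctsg. The GATA motif AGATAA was in 8.70%, 11.3% and 7.92%, the E-box CACGTG in 4.35%, 9.43% and 11.9%, and the cyclic AMP response element TGACGTCA in 2.17%, 3.77% and 3.57%. Motifs were counted separately, so matches of 2 motifs may overlap. The shares describe letters in these windows and were not tested.

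Other large rises were in genes with different roles. Scin, scinderin, which severs actin filaments, had 124 and 76.2 CPM in NPMc_Flt3ITD, against 6.04 and 2.4 CPM in Mx, and Rab44, a large GTPase of the Rab family, had 154 and 118 CPM in NPMc_Flt3ITD, against 10.3 and 10.7 CPM in Mx. Their log2 differences were 4.33 ± 0.38 and 3.56 ± 0.25 (SE). Alox5, the lipoxygenase that starts leukotriene synthesis, had 30.2 and 24.2 CPM in NPMc_Flt3ITD, against 1.27 and 2.07 CPM in Mx. Akr1c12, an aldo-keto reductase, had 26.9 and 55 CPM in NPMc_Flt3ITD, against 2.25 and 2.83 CPM in Mx, and its close copy Akr1c13 on chromosome 13 had 72.2 and 107 CPM in NPMc_Flt3ITD, against 29.1 and 29.4 CPM in Mx, so part of the reads may be shared. Slc17a8, a vesicular glutamate transporter, had 24.3 and 38.2 CPM in NPMc_Flt3ITD, against 1.27 and 3.35 CPM in Mx, and Atp8b4, a phospholipid flippase subunit, had 36.4 and 68.5 CPM in NPMc_Flt3ITD, against 3.04 and 6.27 CPM in Mx. Apob, the core apolipoprotein of liver and gut lipoproteins, had 18.1 and 16.8 CPM in NPMc_Flt3ITD, against 0.0375 and 1.23 CPM in Mx. The Mx value of replicate 1 is a single read, and edgeR's quasi-likelihood test did not call Apob (adjusted p = 0.115). Hnf4a, a transcription factor best known from liver and gut, had 59.5 and 71.8 CPM in NPMc_Flt3ITD, against 8.4 and 8.15 CPM in Mx, and was picked after its values were seen.

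The largest falls took in stem cell, imprinted and B-lineage genes. Mmrn1, multimerin of platelets and endothelium, had 16.5 and 12.6 CPM in NPMc_Flt3ITD, against 152 and 143 CPM in Mx, and differed by -3.27 ± 0.22 (SE; limma adjusted p = 0.000906), with mean CPM 10.2 times as high in Mx. Grb10, an imprinted adaptor that dampens receptor tyrosine kinase signals, had 6.81 and 9.97 CPM in NPMc_Flt3ITD, against 111 and 94.6 CPM in Mx, and differed by -3.48 ± 0.27 (SE; adjusted p = 0.00132). Fhl1, a LIM-domain protein, had 1.87 and 1.62 CPM in NPMc_Flt3ITD, against 35.5 and 33.5 CPM in Mx. The 2 Mx libraries were close to each other and far above both mutant libraries in these 3 genes. Ndn, an imprinted gene that restrains cell cycle entry of stem cells, had 0.823 and 0.838 CPM in NPMc_Flt3ITD, against 16 and 26.6 CPM in Mx. Its imprinted neighbour Peg12 on chromosome 7 had 2.06 and 3.52 CPM in NPMc_Flt3ITD, against 20.9 and 22.7 CPM in Mx, and was called too. Neo1, a receptor for netrins and guidance molecules, had 0.86 and 0.231 CPM in NPMc_Flt3ITD, against 10.9 and 14.9 CPM in Mx.

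Vpreb3 and Ebf1, genes of early B cells, and Clca1 were less even. Vpreb3 had 0.15 and 0.953 CPM in NPMc_Flt3ITD, against 9.67 and 48.7 CPM in Mx, so that the Mx libraries themselves differed by several times. Ebf1 had 0.0374 and 0.462 CPM in NPMc_Flt3ITD, against 5.51 and 18 CPM in Mx, the value of NPMc_Flt3ITD replicate 1 being a single read. Clca1, a secreted goblet cell protein, had 2.77 and 0.26 CPM in NPMc_Flt3ITD, against 21.6 and 25.1 CPM in Mx. These 3 were called by limma but not by edgeR's quasi-likelihood test (adjusted p = 0.094, 0.128 and 0.102). Pabpc4l, a poly(A)-binding protein gene, had 0.0748 and 0.0578 CPM in NPMc_Flt3ITD, against 6.52 and 12.1 CPM in Mx, where each mutant value stands for 2 reads. Abcg3, an ABC transporter, had 3.48 and 3.7 CPM in NPMc_Flt3ITD, against 48.3 and 36.8 CPM in Mx. It lies on chromosome 5 beside Gbp8, Gbp9, Gbp4 and Gbp6, which were called lower as well.

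**Figure D2:**
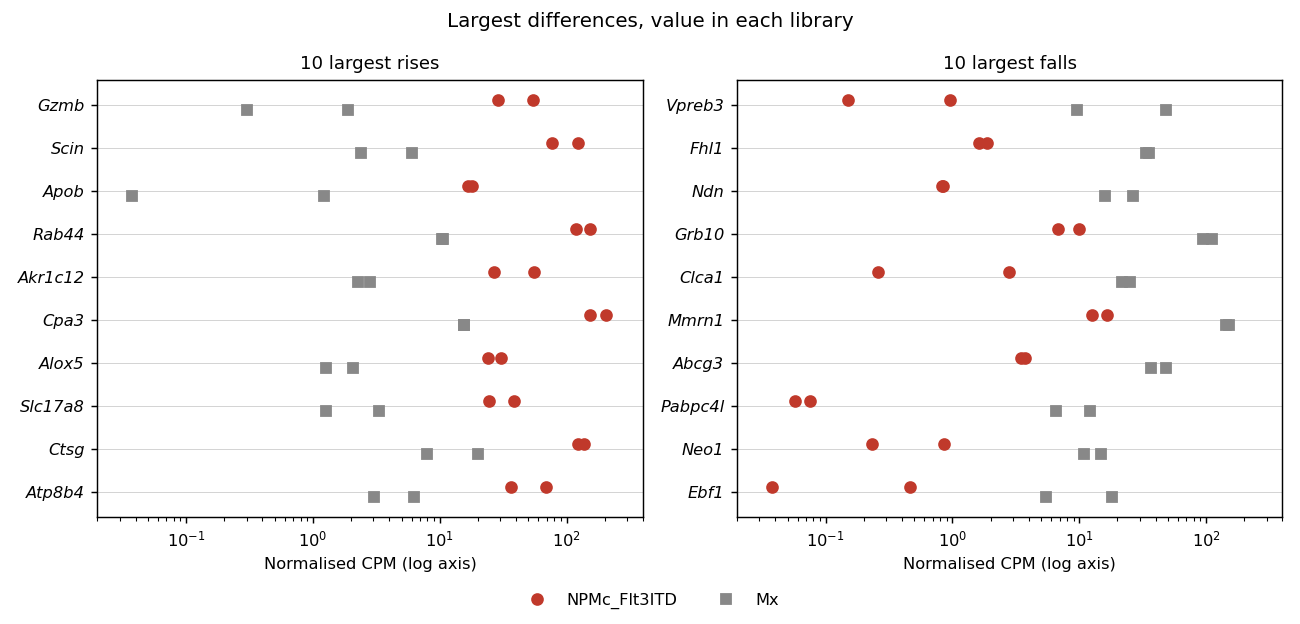
Normalised CPM on a log axis in each library for the 10 largest rises (left) and the 10 largest falls (right), with the NPMc_Flt3ITD libraries as red circles above the Mx libraries as grey squares. The groups do not overlap in any of the 20 genes, and Mx values spread most in Apob, Gzmb and Vpreb3.

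Calls among genes that define LT-HSC were mostly lower. Of 34 genes 6 were called lower and 1 higher, 20.6% against 1.19% of all genes, and 29 of 34 had a difference below 0. This list, like the others, was chosen with earlier results of these data known, so its share of calls is descriptive only. The median was -0.83, against 0.01 over all genes. It was -0.84 and -0.86 within replicate numbers 1 and 2, and -0.96 to -0.76 when single libraries were left out. With the block 15 were called lower and 1 higher. Over all genes, for this and each list below, limma called 0.524% higher and 0.669% lower, and the block 2.68% and 2.88%. In Flt3ITD against Mx the median of this list was -1.08, and in NPMc_Flt3ITD against Flt3ITD it was 0.087. In bulk samples such as these, fewer cells of a type and less RNA per cell cannot be told apart.

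The 6 lower genes were Fhl1, Neo1, Esam, Mllt3, Tek and Procr. Neo1 passed the low-value filter through Mx alone, so it could only come out lower. Esam, an adhesion molecule used to sort stem cells, had 42 and 41.2 CPM in NPMc_Flt3ITD, against 143 and 138 CPM in Mx, and differed by -1.73 ± 0.17 (SE; adjusted p = 0.00326). Tek, the angiopoietin receptor TIE2, had 6.96 and 4.04 CPM in NPMc_Flt3ITD, against 64.2 and 47.5 CPM in Mx. Mllt3, a chromatin reader that maintains stem cells, had 40 and 43.9 CPM in NPMc_Flt3ITD, against 148 and 175 CPM in Mx, and Procr, the protein C receptor EPCR, had 27.4 and 42.5 CPM in NPMc_Flt3ITD, against 87.6 and 85.8 CPM in Mx. In each of these both mutant libraries lay well below both Mx libraries. The 1 higher gene was Socs2, a STAT5-induced feedback inhibitor of cytokine receptors. Among members that limma did not call, Mecom, a transcription factor required by LT-HSC, had 53 and 53.8 CPM in NPMc_Flt3ITD, against 102 and 110.1 CPM in Mx (adjusted p = 0.126, and 0.0177 with the block). Fgd5, a guanine nucleotide exchange factor of stem cells, had 1.91 and 8.78 CPM in NPMc_Flt3ITD, against 19.9 and 21.6 CPM in Mx (adjusted p = 0.129, and 0.0185 with the block).

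Genes of quiescence lay on both sides of 0. Of 35 genes 2 were called, Ndn and Clec1a, both lower, and the median was 0.056. The sign of this median turned to -0.068 on rescaling, and it ranged from -0.22 to 0.24 over the libraries left out. Clec1a, a C-type lectin receptor, had 1.68 and 2.43 CPM in NPMc_Flt3ITD, against 15 and 15.6 CPM in Mx. Ndn passed the low-value filter through Mx alone, so it could only come out lower. With the block 5 members were called higher and 5 lower, where 2.68% of all genes were called higher and 2.88% lower. Cdkn1c, the cell cycle inhibitor p57, had 1.42 and 5.2 CPM in NPMc_Flt3ITD, against 3.22 and 6.27 CPM in Mx, with overlapping libraries (adjusted p = 0.828).

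Proliferation genes stood close to their Mx levels. None of 48 DNA replication and G1/S genes and none of 66 G2/M and mitosis genes was called by limma, with medians of -0.042 and -0.14. An unadjusted p under 0.05 was found for 4 genes of each list. Libraries did not overlap for 4 higher and 10 lower genes of the first list and for 4 higher and 16 lower genes of the second. Over all 12400 genes the shares without overlap were 20.4% higher and 22.0% lower. Differences below 0 were found for 28 of 48 and 45 of 66 genes, against 6046 of all 12400. Neither edgeR nor the block called a gene of the first list. Of the second, edgeR called none, DESeq2 called 1 lower, and the block called 1 in each direction. On rescaling the medians were -0.17 and -0.27, where the median of all genes was -0.11. Mki67, the Ki-67 antigen of cycling cells, had 101 and 129.8 CPM in NPMc_Flt3ITD, against 127 and 117 CPM in Mx. The replication clamp Pcna had 326 and 387 CPM in NPMc_Flt3ITD, against 369.5 and 356 CPM in Mx, and Mcm6, a subunit of the replicative helicase, had 409.8 and 425 CPM in NPMc_Flt3ITD, against 452 and 441 CPM in Mx. Stmn1 and Hmgb2 were the most abundant genes of the mitosis list. Stmn1, a microtubule regulator, had 642 and 772 CPM in NPMc_Flt3ITD, against 561 and 666 CPM in Mx, and Hmgb2, a chromatin protein, had 364 and 555 CPM in NPMc_Flt3ITD, against 381 and 509 CPM in Mx. Among 21 G1 cyclins, kinases and inhibitors only Ccnd1 was called, lower, and the block called 2 higher as well. Cdk6, a G1 kinase, had 135 and 126 CPM in NPMc_Flt3ITD, against 64 and 92.3 CPM in Mx (adjusted p = 0.141, and 0.0218 with the block).

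Hox genes, whose high level is characteristic of NPM1-mutant leukaemia in patients, held no call by limma. None of 8 Hoxa genes, 5 Hoxb genes and 10 Hox cofactors was called by limma, by edgeR or with the block. An unadjusted p under 0.05 was found for 2 genes of each of these lists, and DESeq2 called 1 Hoxa gene higher and 1 Hoxb gene lower. Hoxa9 had 43.5 and 36.1 CPM in NPMc_Flt3ITD, against 33.9 and 26.6 CPM in Mx (adjusted p = 0.611) and Hoxa10 had 34.6 and 51.3 CPM in NPMc_Flt3ITD, against 38.3 and 39.7 CPM in Mx (adjusted p = 0.914). The cofactor Meis1 had 466 and 263 CPM in NPMc_Flt3ITD, against 477 and 379 CPM in Mx, and in both Hoxa10 and Meis1 the libraries overlapped. The 5 Hoxb genes that passed the low-value filter, of 10 measured, were all below 0, with a median of -0.83. That median was -1.32 without Mx replicate 2, -1.36 by edgeR and -0.40 at a pseudocount of 4. Hoxb5, which marks LT-HSC in mice, had 2.62 and 2.2 CPM in NPMc_Flt3ITD, against 7.57 and 8.25 CPM in Mx (adjusted p = 0.147), and Hoxb3 had 3.03 and 3.26 CPM in NPMc_Flt3ITD, against 9.37 and 5.89 CPM in Mx (adjusted p = 0.352).

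Progenitor genes held calls in the higher direction only. Of 20 multipotent progenitor genes 2 were called, both higher (10%), and 8 were called higher with the block. Cd48, the SLAM-family receptor that LT-HSC lack at their surface in the usual sort, had 290.0 and 419 CPM in NPMc_Flt3ITD, against 39.9 and 60.9 CPM in Mx, and differed by 2.80 ± 0.26 (SE; adjusted p = 0.00314). Plac8, a cysteine-rich protein of early myeloid and lymphoid progenitors, had 824 and 935 CPM in NPMc_Flt3ITD, against 213 and 299 CPM in Mx. Of 35 granulocyte-monocyte progenitor genes 4 were called, all higher (11.4%). Their median was 0.92, 30 of 35 were above 0, and 13 were called higher with the block. When NPMc_Flt3ITD or Mx libraries were left out 1 at a time, the median ranged from 0.66 to 1.18, while the calls ranged from 0 to 4.

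The 4 called genes were Nkg7, Cst7, Prss57 and Ctsg. Nkg7, a granule membrane protein, had 291 and 280.2 CPM in NPMc_Flt3ITD, against 76.3 and 90.3 CPM in Mx. Cst7, cystatin F, which inhibits granule proteases, had 41.9 and 32.7 CPM in NPMc_Flt3ITD, against 5.96 and 7.4 CPM in Mx, and Prss57, a neutrophil granule serine protease, had 27.9 and 36.9 CPM in NPMc_Flt3ITD, against 4.05 and 6.13 CPM in Mx. The mutant libraries were above both Mx libraries by a wide margin in each. Mpo, myeloperoxidase, had 631 and 432 CPM in NPMc_Flt3ITD, against 54.7 and 120.2 CPM in Mx, and just missed the threshold (adjusted p = 0.0596, and 0.00194 with the block). Elane, neutrophil elastase, had 178 and 107 CPM in NPMc_Flt3ITD, against 1.57 and 13.4 CPM in Mx, with a wide spread in Mx and an adjusted p of 0.232, or 0.0201 with the block. The summed level of the list was 3173 and 3159.9 CPM in NPMc_Flt3ITD, against 1529 and 1646 CPM in Mx. In Flt3ITD it was 2181 and 3346 CPM, so that replicate 2 was above both NPMc_Flt3ITD libraries. The median of the list was 0.50 in Flt3ITD against Mx and 0.47 in NPMc_Flt3ITD against Flt3ITD.

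Mast cell and basophil genes gave 4 calls of 17, all higher (23.5%, against 0.524% of all genes). Their median was 0.43 and ranged from 0.27 to 0.71 over the libraries left out. Beside Cpa3, Gzmb and Mcpt8 the calls held Lat2, an adaptor of immune receptors, with 187 and 165 CPM in NPMc_Flt3ITD, against 22 and 22.5 CPM in Mx, and a difference of 2.93 ± 0.18 (SE; adjusted p = 0.000662). The list summed to 2157 and 1501 CPM in NPMc_Flt3ITD, against 1289 and 1259 CPM in Mx. Mcpt8 passed the low-value filter through NPMc_Flt3ITD alone, so it could only come out higher. Mature neutrophil genes varied with single libraries instead. None of 18 was called by limma, edgeR or DESeq2, 2 had an unadjusted p under 0.05, and the median was -0.83 and 1.63 within replicate numbers 1 and 2. S100a8, a neutrophil calcium-binding protein, had 31.6 and 210.1 CPM in NPMc_Flt3ITD, against 68.2 and 28.1 CPM in Mx, and the list summed to 284 and 797 CPM in NPMc_Flt3ITD, against 371 and 197 CPM in Mx. The block called 1 neutrophil gene higher. NPMc_Flt3ITD replicate 2 had the highest neutrophil sum of the 4 libraries, and the sum of replicate 1 lay within the Mx range. The part of neutrophils or of other cells in the granule genes was not tested. Padi4, a protein deiminase, had 128 and 143 CPM in NPMc_Flt3ITD, against 91.8 and 54.7 CPM in Mx (adjusted p = 0.156, and 0.0188 with the block).

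Erythroid genes held 3 calls of 35, all lower, with a median of -0.36 that ranged from -0.69 to 0.13 over the libraries left out. The block called 7 lower and 1 higher. Ermap, an erythroid membrane protein, had 3.63 and 1.68 CPM in NPMc_Flt3ITD, against 12.1 and 16.5 CPM in Mx. Add2, a membrane skeleton protein, had 0.823 and 0.0867 CPM in NPMc_Flt3ITD, against 4.69 and 7.4 CPM in Mx, and Rhd, a Rh blood group protein, had 0.486 and 0.347 CPM in NPMc_Flt3ITD, against 4.27 and 4.05 CPM in Mx. Both Add2 and Rhd passed the low-value filter through Mx alone, so they could only come out lower. Slc40a1, the iron exporter ferroportin, was also lower, with 1.38 and 1.53 CPM in NPMc_Flt3ITD, against 7.87 and 6.64 CPM in Mx, and was picked after its values were seen. The erythroid carbonic anhydrase Car1 had 76.9 and 16.5 CPM in NPMc_Flt3ITD, against 151 and 123 CPM in Mx (adjusted p = 0.167, and 0.0152 with the block). The list summed to 2989.5 and 2083 CPM in NPMc_Flt3ITD, against 2792 and 2785 CPM in Mx, so the summed level of NPMc_Flt3ITD lay on both sides of Mx. Of 30 megakaryocyte and platelet genes Mmrn1 and Selp were lower and Plek was higher, and the block called 5 lower and 4 higher. The shares over all genes were 0.669% lower and 0.524% higher, and 2.88% and 2.68% with the block. Selp, P-selectin, had 20.5 and 30.7 CPM in NPMc_Flt3ITD, against 122 and 131 CPM in Mx, and Plek, the platelet kinase substrate pleckstrin, had 412 and 246 CPM in NPMc_Flt3ITD, against 121 and 93.8 CPM in Mx. The platelet list summed to 4165 and 2601 CPM in NPMc_Flt3ITD, against 3650.1 and 3187 CPM in Mx.

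Calls among early lymphoid and B-lineage genes were mostly lower. Of 39 genes 5 were called lower and 1 higher (15.4%), with a median of -0.43, and the block called 13 lower and 1 higher. By edgeR 1 was called in each direction, and at a pseudocount of 0.25 as well. No lower call was made without NPMc_Flt3ITD replicate 1, NPMc_Flt3ITD replicate 2 or Mx replicate 2, and the median ranged from -0.97 to -0.29 over the libraries left out. The lower genes were Gimap6, Ebf1, Vpreb3, Rag1 and Cecr2, and the higher one was Gpr97. Ebf1, Vpreb3 and Rag1 passed the low-value filter through Mx alone, so they could only come out lower. Rag1, the recombinase of antigen receptor genes, had 0 and 0.0578 CPM in NPMc_Flt3ITD, against 3.07 and 4.66 CPM in Mx, where the mutant values stand for 0 and 2 reads. Gimap6, a lymphocyte GTPase, had 166 and 174 CPM in NPMc_Flt3ITD, against 388 and 334 CPM in Mx, and Gpr97, an adhesion receptor, had 175 and 169 CPM in NPMc_Flt3ITD, against 55.5 and 55.7 CPM in Mx. The list summed to 1519.7 and 1615 CPM in NPMc_Flt3ITD, against 1799 and 2135 CPM in Mx. In Flt3ITD against Mx its median was -1.11, and in NPMc_Flt3ITD against Flt3ITD it was 0.32. Mature B and plasma cell genes had 1 call of 23, and 2 in each direction with the block. The 1 call was Cd37, a tetraspanin of leukocytes, with 157 and 152 CPM in NPMc_Flt3ITD, against 75.3 and 78.2 CPM in Mx. Igj, the joining chain of plasma cells, followed the replicate numbers with 8.34 and 242 CPM in NPMc_Flt3ITD, against 6.26 and 82.3 CPM in Mx.

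Markers of T and NK cells gave 3 higher calls of 26, Gzmb, Nkg7 and Thy1, and the block called 5 higher. Over all genes the higher calls made up 0.524%, and 2.68% with the block. The median of the list was -0.065. The sign of this median was not stable. It ranged from -0.31 to 0.45 over the libraries left out and was 0.97 for genes with at least 5 CPM in 2 libraries. Thy1, a surface antigen of T cells and of some progenitors, had 33.1 and 45.9 CPM in NPMc_Flt3ITD, against 8.32 and 9.85 CPM in Mx. The list summed to 597 and 631 CPM in NPMc_Flt3ITD, against 213 and 302 CPM in Mx, of which Nkg7 alone was the larger part of the difference. Of 24 stromal and endothelial genes Pdgfrb, Igfbp4 and Igfbp7 were higher and Tek was lower, and the block called 6 higher and 4 lower. Igfbp4, which binds insulin-like growth factors, had 531 and 493 CPM in NPMc_Flt3ITD, against 215 and 227 CPM in Mx. Igfbp7, of the same family, had 5.31 and 10.3 CPM in NPMc_Flt3ITD, against 0 and 0.0942 CPM in Mx, with 0 and 2 reads in Mx. It passed the low-value filter through NPMc_Flt3ITD alone, so it could only come out higher. This list summed to 2068 and 1814 CPM in NPMc_Flt3ITD, against 2014 and 1585 CPM in Mx, and Pdgfra was at 0 in all 4 libraries, with Cdh5, Dcn, Lum and Nes under 1 CPM in each. Macrophage and dendritic cell genes had no call by limma or edgeR among 16, though 3 had an unadjusted p under 0.05 and DESeq2 called 2 higher. The block called 1 macrophage or dendritic cell gene higher. They summed to 358 and 546 CPM in NPMc_Flt3ITD, against 612 and 617 CPM in Mx. Of the antigen presentation genes, Cd74 had 75.2 and 198 CPM in NPMc_Flt3ITD, against 203 and 253 CPM in Mx. H2-Aa had 90.2 and 103 CPM in NPMc_Flt3ITD, against 129 and 131 CPM in Mx. The macrophage genes C1qa, C1qb, C1qc and Siglec1, the dendritic cell gene Siglech, the erythroid gene Slc4a1, the mast cell protease Cma1 and the T cell gene Cd8b1 were each under 1 CPM in all 4 libraries. Counted before the low-value filter, such genes were 6 of 24 macrophage and dendritic cell genes and 2 of 41 erythroid genes. They were 2 of 21 mast cell and basophil genes and 1 of 34 T and NK cell genes. All others of these lists reached 1 CPM in at least 1 library. The part of other cells in the calls above was not tested.

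**Figure D3:**
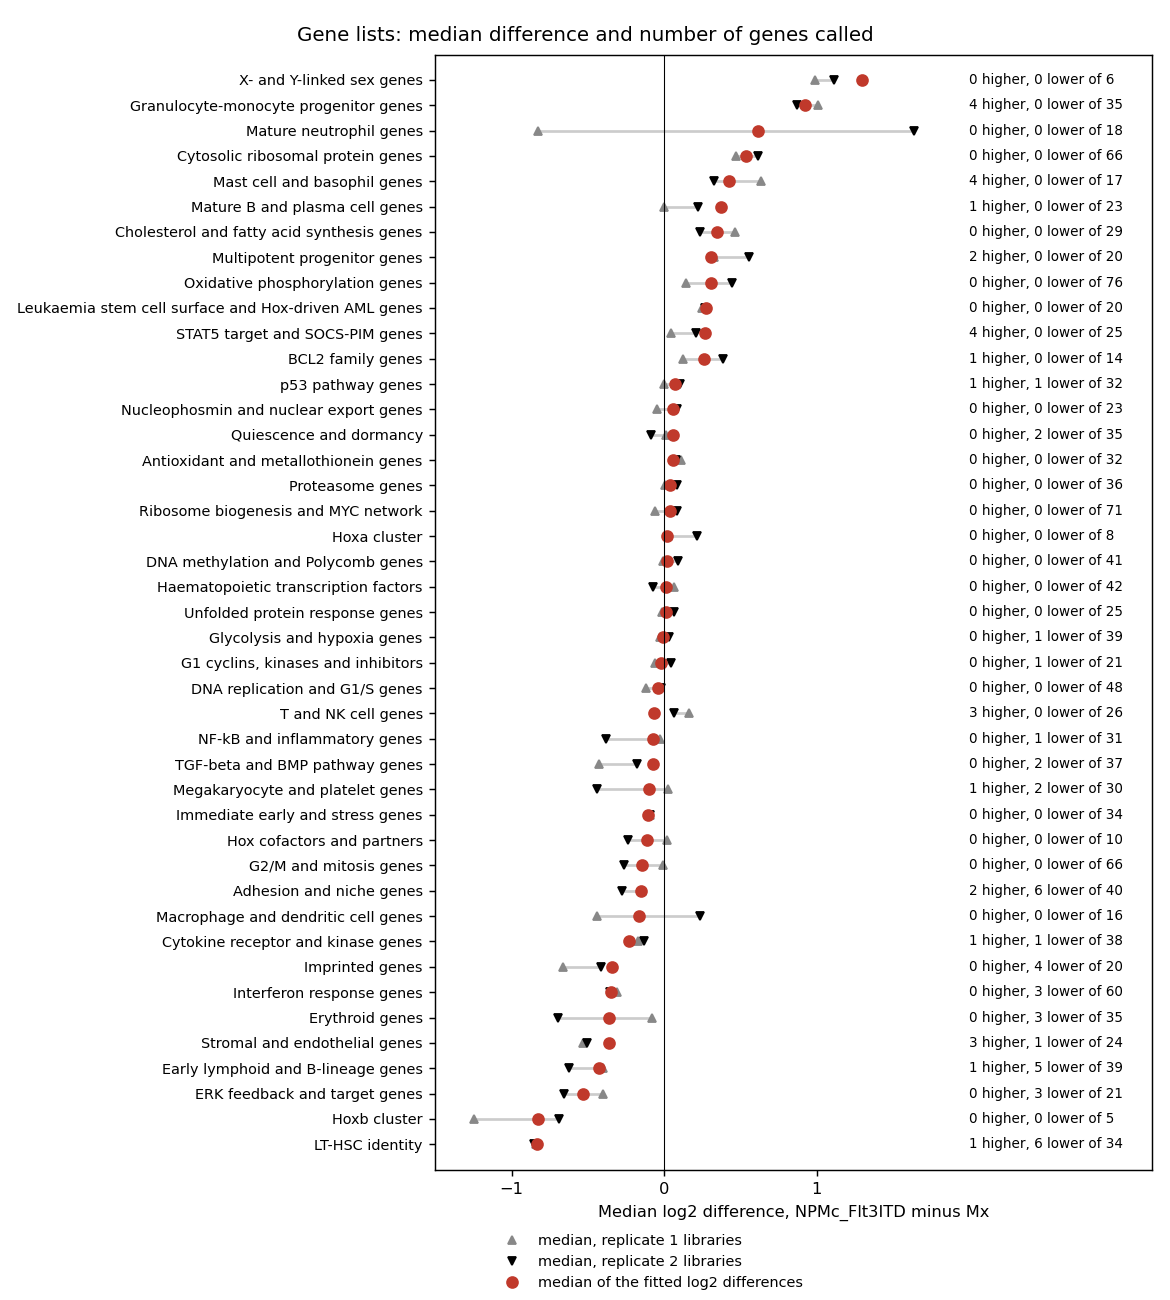
Median log2 difference (NPMc_Flt3ITD minus Mx) of each gene list, as a red circle for the fitted values and as triangles for replicate 1 and replicate 2 libraries compared by number, with the number of genes called beside it. LT-HSC genes and Hoxb genes are lowest, both at -0.83. The triangles are close together for LT-HSC genes but at -1.24 and -0.69 for Hoxb genes. Mature neutrophil genes have the widest gap between the replicate numbers.

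Calls among genes downstream of cytokine receptors went in opposite directions in 2 lists. Of 25 STAT5 target and SOCS-PIM genes 4 were called, all higher (16%), namely Socs2, Osm, Gzmb and Podxl. Socs2 had 229 and 359 CPM in NPMc_Flt3ITD, against 60.8 and 54.7 CPM in Mx, and differed by 2.29 ± 0.23 (SE; adjusted p = 0.00342). Osm, the cytokine oncostatin M, had 129 and 122 CPM in NPMc_Flt3ITD, against 11.9 and 16 CPM in Mx, and differed by 3.09 ± 0.31 (SE; adjusted p = 0.00342). Podxl, a sialomucin of the cell surface, had 50.8 and 48.6 CPM in NPMc_Flt3ITD, against 16.4 and 12.9 CPM in Mx. The median of the list was 0.26, and 14 of 25 were above 0. It was 0.041 and 0.21 within replicate numbers 1 and 2, 0.14 on rescaling and 0.090 to 0.29 over the libraries left out. Of 21 ERK feedback and target genes 3 were called, all lower (14.3%), around a median of -0.53. In Flt3ITD against Mx the median of the ERK list was -0.85, and in NPMc_Flt3ITD against Flt3ITD it was 0.32.

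The 3 lower ERK genes were Dusp6, Dusp4 and Ccnd1. Dusp6, the phosphatase that inactivates ERK, had 49.9 and 44 CPM in NPMc_Flt3ITD, against 236 and 191 CPM in Mx, and differed by -2.16 ± 0.19 (SE; adjusted p = 0.00274). Dusp4, a related phosphatase, had 1.31 and 0.376 CPM in NPMc_Flt3ITD, against 18 and 12 CPM in Mx, and Ccnd1, cyclin D1, had 6.36 and 7.17 CPM in NPMc_Flt3ITD, against 57.1 and 42.5 CPM in Mx. Each was several times lower in both mutant libraries. Fgf3, a fibroblast growth factor whose gene is the next member to Ccnd1 on chromosome 7, was called the other way, with 50.8 and 28.6 CPM in NPMc_Flt3ITD, against 8.25 and 4.57 CPM in Mx. Of 38 cytokine receptors and kinases Pdgfrb was higher and Tek lower, and the block called 4 higher and 5 lower. Among all genes 0.524% were called higher and 0.669% lower, and 2.68% and 2.88% with the block. Pdgfrb, the platelet-derived growth factor receptor beta, had 65.7 and 59.3 CPM in NPMc_Flt3ITD, against 7.95 and 8.39 CPM in Mx, and differed by 2.79 ± 0.26 (SE; adjusted p = 0.00274), a 7.65-fold ratio of mean CPM.

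Immediate early genes varied with the replicate number. None of 34 was called by limma or edgeR, 9 had an unadjusted p under 0.05, DESeq2 called 5 lower, and the summed level was 20135 and 11066 CPM in NPMc_Flt3ITD, against 18416 and 8890.0 CPM in Mx, higher in replicate 1 of each group. Fos had 5649 and 3129 CPM in NPMc_Flt3ITD, against 4767 and 1646 CPM in Mx, Jun had 2059 and 923 CPM in NPMc_Flt3ITD, against 2073 and 498 CPM in Mx, and Junb had 711 and 227 CPM in NPMc_Flt3ITD, against 705 and 136 CPM in Mx, all subunits of the AP-1 factor. Comparing within numbers, the block called 9 lower and 1 higher, among them Nr4a1, an orphan nuclear receptor, with 727 and 215 CPM in NPMc_Flt3ITD, against 1012 and 451 CPM in Mx (adjusted p = 0.0122 with the block and 0.715 without).

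Adhesion and niche genes had 6 lower and 2 higher calls of 40 (20%), around a median of -0.15 that ranged from -0.32 to 0.0058 over the libraries left out, and the block called 9 lower and 4 higher. Beside Esam, Selp and Tek the lower genes were S1pr1, Icam1 and Jam3. S1pr1, the receptor through which blood cells leave tissues along sphingosine-1-phosphate, had 15.6 and 10.3 CPM in NPMc_Flt3ITD, against 47.8 and 55.6 CPM in Mx. Icam1, an integrin ligand, had 22 and 21.6 CPM in NPMc_Flt3ITD, against 62.7 and 63 CPM in Mx, and Jam3, a junctional adhesion molecule, had 3.33 and 4.3 CPM in NPMc_Flt3ITD, against 15.5 and 21.2 CPM in Mx. The higher genes were Cxcr4, the receptor that holds stem cells in the marrow, with 35.2 and 29.2 CPM in NPMc_Flt3ITD, against 12 and 11.7 CPM in Mx, and Itgal, an integrin that binds Icam1, with 56.9 and 67 CPM in NPMc_Flt3ITD, against 17.8 and 26.1 CPM in Mx.

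Interferon genes held 3 lower calls of 60 (5.0%), with 46 of 60 below 0 and a median of -0.35. The median ranged from -0.41 to -0.28 over the libraries left out. The block called 8 lower and 1 higher, where 2.88% of all genes were called lower and 2.68% higher. The median of this list was -0.23 in Flt3ITD against Mx and 0.0059 in NPMc_Flt3ITD against Flt3ITD. The genes called by limma were Gbp6, Gbp4 and Ifi44, all interferon-induced. Gbp6 had 4.49 and 2.46 CPM in NPMc_Flt3ITD, against 30.8 and 28.2 CPM in Mx, Gbp4 had 2.84 and 1.79 CPM in NPMc_Flt3ITD, against 34.4 and 19.2 CPM in Mx, and Ifi44 had 30.1 and 18.2 CPM in NPMc_Flt3ITD, against 69 and 84.3 CPM in Mx. Of their neighbours, Gbp8 had 1.68 and 4.02 CPM in NPMc_Flt3ITD, against 22.3 and 20.8 CPM in Mx. Gbp9 had 0.785 and 2.05 CPM in NPMc_Flt3ITD, against 14.9 and 16.6 CPM in Mx. These guanylate-binding proteins are close copies of one another, so the split of reads between them is uncertain, and all 4 were called lower.

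TGF-beta and BMP genes gave 2 lower calls of 37, Klf10 and Id3, and 8 with the block. Klf10, a zinc finger protein induced by TGF-beta, had 79.2 and 69.6 CPM in NPMc_Flt3ITD, against 187 and 191 CPM in Mx, and Id3, an inhibitor of helix-loop-helix factors induced by BMP, had 4.08 and 5.37 CPM in NPMc_Flt3ITD, against 29.1 and 22.7 CPM in Mx. Of the 20 imprinted genes on the list 4 were called, all lower (20%), namely Grb10, Ndn, Ppp1r9a and Meg3. Peg12, called lower above, was not on this list. The list had a median of -0.35, with -0.59 in Flt3ITD against Mx and -0.019 in NPMc_Flt3ITD against Flt3ITD. Ppp1r9a, an actin-binding scaffold, had 22.1 and 21.9 CPM in NPMc_Flt3ITD, against 58 and 55.5 CPM in Mx, and Meg3, a maternally expressed long non-coding RNA, had 0.524 and 0.982 CPM in NPMc_Flt3ITD, against 6.97 and 11.2 CPM in Mx. Ndn and Meg3 passed the low-value filter through Mx alone, so they could only come out lower. Single calls were found in the p53 list on each side. Pmaip1, the death effector NOXA and the only call among 14 BCL2 family genes, had 11.4 and 16.2 CPM in NPMc_Flt3ITD, against 0.112 and 2.26 CPM in Mx, and Plk2, a polo-like kinase, had 32.8 and 20.6 CPM in NPMc_Flt3ITD, against 86.5 and 78.5 CPM in Mx. Single calls in other lists were Icam1 for NF-kB and inflammation (1 of 31) and Ldhb, a lactate dehydrogenase subunit, for glycolysis and hypoxia (1 of 39), with 29.5 and 30.1 CPM in NPMc_Flt3ITD, against 83.6 and 99.5 CPM in Mx. With the block these lists held 1 higher and 5 lower, and 2 higher and 2 lower calls.

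All 66 cytosolic ribosomal protein genes had differences above 0, with a median of 0.54, but neither limma nor edgeR nor DESeq2 called any, 4 had an unadjusted p under 0.05, and the block called 30, all higher. On rescaling the median was 0.41, and over the libraries left out it ranged from 0.22 to 0.88. Rplp0, of the large subunit, had 2987 and 3255 CPM in NPMc_Flt3ITD, against 2695 and 2475 CPM in Mx. The summed level was 76129 and 110194 CPM in NPMc_Flt3ITD, against 56912 and 74497 CPM in Mx, and in 29 of 66 genes both mutant libraries were above both Mx libraries. The same held for 20.4% of all 12400 genes. Oxidative phosphorylation genes had a median of 0.31, with 63 of 76 above 0. This median was 0.18 on rescaling and ranged from -0.011 to 0.54 over the libraries left out, so its sign was not stable. Limma, edgeR and DESeq2 called none of them, and 3 had an unadjusted p under 0.05. Cholesterol and fatty acid synthesis genes had a median of 0.35, with 27 of 29 above 0, and the median was 0.22 on rescaling and 0.25 to 0.53 over the libraries left out. Limma and edgeR called none of these, 7 had an unadjusted p under 0.05, and DESeq2 called 2 higher. In both of these lists the block called 4 genes, all higher. No call by limma or edgeR was made among 71 genes of ribosome biogenesis, 36 proteasome genes, 25 unfolded protein response genes, 32 antioxidant genes, 41 DNA methylation and Polycomb genes, 42 haematopoietic transcription factors, 23 nucleophosmin and export genes or 20 leukaemia stem cell genes. In the same order an unadjusted p under 0.05 was found for 3, 0, 3, 6, 4, 8, 0 and 5 of them. DESeq2 called 4 transcription factors higher and 3 lower, 2 leukaemia stem cell genes higher and 1 lower, and none in the other 6 lists. With the block calls were found for 4 transcription factors in each direction, 3 leukaemia stem cell genes higher and 1 lower, 1 antioxidant gene in each direction and 1 unfolded protein response gene lower. Nfe2, a transcription factor of megakaryocytes and erythroid cells, had 388 and 318 CPM in NPMc_Flt3ITD, against 219 and 213 CPM in Mx (adjusted p = 0.0997, and 0.00895 with the block). Ebf1, a transcription factor of early B cells that limma called lower, was not among the 42.

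Against Flt3ITD, which lacks NPMc+ in its label, 142 of the 12400 genes (1.15%) were called in NPMc_Flt3ITD by the same fit, and 1486 with the block. The count was 52 and 24 without NPMc_Flt3ITD replicates 1 and 2, and 24 without Flt3ITD replicate 1. Several genes set apart above differed between the mutants as well. Cpa3 had 205 and 152 CPM in NPMc_Flt3ITD, with 52.1 and 42.4 CPM in Flt3ITD, against 15.5 and 15.5 CPM in Mx, and its log2 difference between the mutants was 1.89 ± 0.22 (SE; adjusted p = 0.00673). Lat2, Pdgfrb, Osm and Hnf4a were likewise higher than in Flt3ITD, by 1.51, 2.52, 1.74 and 3.37 (adjusted p = 0.00728, 0.00434, 0.0391 and 0.00548). Pdgfrb had 10.5 and 9.63 CPM in Flt3ITD, and Hnf4a 3.55 and 8.02 CPM in place of the 8.4 and 8.15 CPM of Mx. Grb10 was lower, with a difference of -2.04 ± 0.27 (SE; adjusted p = 0.01), with 31.4 and 43.7 CPM in Flt3ITD, and so was Hprt, with -1.91 ± 0.16 (SE; adjusted p = 0.00191), with 234 and 262 CPM in Flt3ITD.

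Of the 35 erythroid genes 16 were called lower in NPMc_Flt3ITD than in Flt3ITD, where 0.863% of all 12400 genes were called lower. The median was -1.49, with 32 of 35 below 0. The lower calls were 13 by edgeR, 24 with the block, 10 with no intensity trend, 0 with no filter on low values, 10 without NPMc_Flt3ITD replicate 2 and 5 without Flt3ITD replicate 1. Ermap had 3.63 and 1.68 CPM in NPMc_Flt3ITD, with 138 and 165 CPM in Flt3ITD, against 12.1 and 16.5 CPM in Mx, a difference between the mutants of -5.43 ± 0.33 (SE; adjusted p = 0.00101). Add2 and Rhd differed by -5.45 and -5.13, and Car1 by -5.28, with 1418 and 1446 CPM in Flt3ITD. The erythroid list summed to 2989.5 and 2083 CPM in NPMc_Flt3ITD, with 6950.0 and 6431 CPM in Flt3ITD, against 2792 and 2785 CPM in Mx. Cdkn1a, the cell cycle inhibitor p21, was not called against Mx (adjusted p = 0.67) but was higher than in Flt3ITD. It had 53.7 and 66.1 CPM in NPMc_Flt3ITD, with 18.1 and 14.4 CPM in Flt3ITD, against 45.5 and 50.5 CPM in Mx, and differed between the mutants by 1.82 ± 0.22 (SE; adjusted p = 0.00861). Hoxa10 had 17.1 and 15.7 CPM in Flt3ITD and differed between the mutants by 1.31 ± 0.25 (SE; adjusted p = 0.04997). Gdf3 was lower, with a difference of -2.73 (adjusted p = 0.00338). Some other genes of the core did not pass this test. Dusp6, Esam, Selp, Mmrn1 and Cd48 had differences between the mutants of -0.29, -0.30, -0.021, -0.51 and 0.48, with adjusted p from 0.265 to 0.975. Socs2 had 129 and 151 CPM in Flt3ITD, between the other groups, and was exceeded in NPMc_Flt3ITD by 1.03 ± 0.23 (SE; adjusted p = 0.07, and 0.00473 with the block). Mki67 had 101 and 129.8 CPM in NPMc_Flt3ITD, against 205 and 189 CPM in Flt3ITD, a difference of -0.78 ± 0.18 (SE; adjusted p = 0.0762, and 0.00925 with the block).

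**Figure D4:**
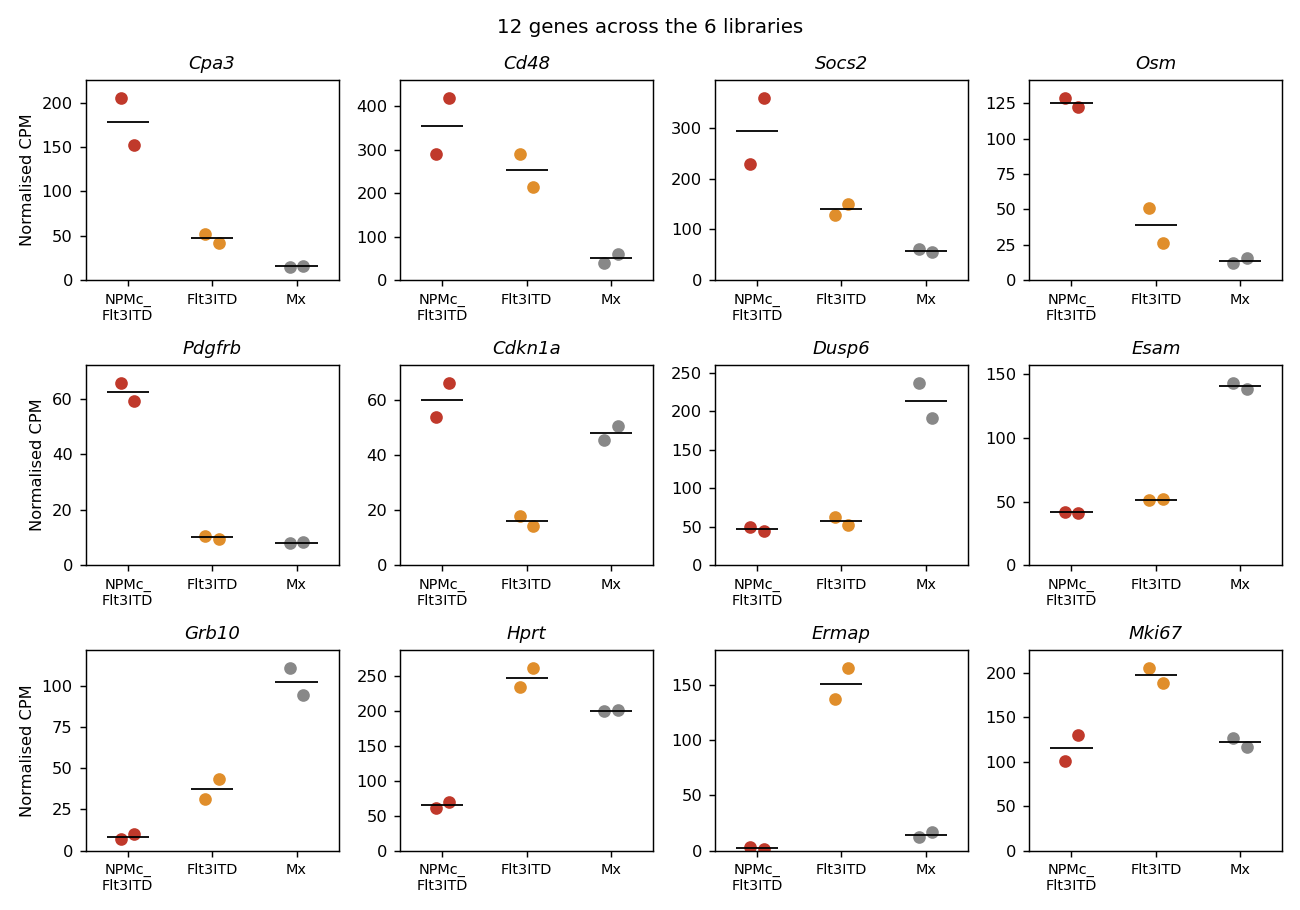
Normalised CPM of 12 genes in the 2 libraries each of NPMc_Flt3ITD, Flt3ITD and Mx, with 1 point per library and a bar at the group mean, on axes that start at 0. Cpa3, Osm and Pdgfrb are highest in NPMc_Flt3ITD, Dusp6 and Esam are low in both mutants, and Ermap is high in Flt3ITD alone of the 3 groups.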

How the data were processed

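RNA of sorted LT-HSC was measured in 6 libraries, 2 per genotype. Each deposited value is a signal, the CPM that the authors normalised with edgeR per the file headers. Build mm9 and the tools edgeR 3.20.7, HTSeq 0.6.1p1, SAMtools 0.1.18, Bowtie2 2.2.4, TopHat2 2.1.0 and CASAVA 1.8 come from the submitters' processing notes. Which annotation was used, whether counting used strand and what became of multiply matching reads is not given in the sources used here, so values of close copies and of overlapping genes are uncertain. The deposited CPM is scaled to 0.934 to 1.1 times the reads counted. Every one of the 107982 values (100%) was a whole number of reads to within 0.01, with 2.33e-08 as the worst deviation. These recovered reads gave the totals and the edgeR and DESeq2 alternatives. Without molecular identifiers, reads are not independent molecules.

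In R 4.3.3, limma 3.58.1 with an intensity trend was fitted to log2(CPM + 1) of all 6 libraries, with group as the only term. It covered 12657 genes with at least 1 CPM in at least 2 libraries, with Benjamini-Hochberg adjustment at 0.05, and had 3 residual degrees of freedom, or 8.67 after moderation. The test was also run on simulated counts, drawn with the same spread setting for all genes and no effect of replicate number. That run therefore does not bear on the pairing described below. Alternatives were edgeR 4.0.16 with its quasi-likelihood test, DESeq2 1.42.0, other pseudocounts, filters, scalings and sets of libraries, and replicate number as a block. The series design text calls the replicates biological.

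Deviations of libraries from their group mean were compared between groups for equal replicate numbers. Across genes they correlated at 0.316 between NPMc_Flt3ITD and Mx, 0.341 between NPMc_Flt3ITD and Flt3ITD and 0.259 between Flt3ITD and Mx. The numbers may therefore pair the libraries, and they entered an alternative fit as a block. The main limma test left this pairing out, and its 148 calls against Mx became 689 with the block. The labels give no reason for such a pairing.

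The members and the 43 gene lists were chosen with earlier results of these data known. Named by rule were the 10 largest rises and 10 largest falls among called genes that had no overlap and averaged 5 CPM or more in the higher group. The rule added up to 4 called members of each list by smallest p, up to 2 of the most abundant members of a list without a call (some results are not reported here), and Junb, S100a8, Igj, Ddx3y, Xist, Socs2, Mki67, Cdk6, Cdkn1c, Mecom, Meis1, Hoxa10, Hoxa9, Npm1 and Flt3. Named after their values were seen were Hprt, Hnf4a, Slc40a1, Procr, Mllt3, Cxcr4, Itgal, Jam3, Gdf3, Gbp8, Gbp9, Akr1c13, Rag1, Eltd1, Fstl1, Gem, Peg12, Fgf3, Mpo, Elane, Kit, Car1, Cdkn1a, Nr4a1, Slamf1, Fgd5 and Hlf, as were genes given only by name and the motifs and promoters. Reference tables of build GRCm38 served only for chromosomes, neighbours and promoters.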

Additional observations from a re-analysis of the deposited data

Results flagged for a closer look

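Among the 131 genes named, many of them for their values, the difference from Mx was not the same in the 2 mutant genotypes for 21, by a limma adjusted p under 0.05 of NPMc_Flt3ITD against Flt3ITD. Over all 12400 genes 142 (1.15%) passed this test. Higher in NPMc_Flt3ITD than in Flt3ITD were Hnf4a by 3.37, Akr1c12 by 2.86, Pdgfrb by 2.52, Thy1 by 2.12, Cpa3 by 1.89, Cdkn1a by 1.82, Osm by 1.74, Plek by 1.56, Lat2 by 1.51, Akr1c13 by 1.33 and Hoxa10 by 1.31 on the log2 scale. Lower were Add2 with -5.45, Ermap with -5.43, Car1 with -5.28, Rhd with -5.13, Slc40a1 with -3.83, Clca1 with -3.12, Gdf3 with -2.73, Grb10 with -2.04, Gbp6 with -1.99 and Hprt with -1.91.

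Thy1, the T cell and progenitor antigen, had 33.1 and 45.9 CPM in NPMc_Flt3ITD, with 7.22 and 9.28 CPM in Flt3ITD, against 8.32 and 9.85 CPM in Mx. Gdf3 had 4.26 and 4.97 CPM in NPMc_Flt3ITD, with 32.4 and 40.2 CPM in Flt3ITD, against 37.2 and 43 CPM in Mx, so that the Flt3ITD libraries lay beside those of Mx. Clca1 had 2.77 and 0.26 CPM in NPMc_Flt3ITD, with 18 and 18 CPM in Flt3ITD, against 21.6 and 25.1 CPM in Mx. Akr1c12 had 26.9 and 55 CPM in NPMc_Flt3ITD, with 4.6 and 4.31 CPM in Flt3ITD, against 2.25 and 2.83 CPM in Mx, and Plek had 412 and 246 CPM in NPMc_Flt3ITD, with 105 and 109 CPM in Flt3ITD, against 121 and 93.8 CPM in Mx. Gbp6 had 4.49 and 2.46 CPM in NPMc_Flt3ITD, with 15.5 and 17.3 CPM in Flt3ITD, against 30.8 and 28.2 CPM in Mx, with Flt3ITD between the other groups. Slc40a1 had 1.38 and 1.53 CPM in NPMc_Flt3ITD, with 34 and 33.7 CPM in Flt3ITD, against 7.87 and 6.64 CPM in Mx, higher in Flt3ITD than in Mx and lower in NPMc_Flt3ITD. The Hoxa10 difference had an adjusted p of 0.04997, at the edge of the threshold.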

How the results depend on the processing

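The count of 148 called genes against Mx stayed within 1.5 times under 10 of 18 alternatives, from 104 by edgeR to 203 on rescaling, with 125 at a pseudocount of 0.25, 194 at 4 and 169 and 167 without Flt3ITD replicates 1 and 2. The replicate block gave 689, its edgeR form, added after seeing the data, 446, and DESeq2 539. With no filter on low values 24 were called. Leaving out libraries gave 20 to 169, and 15 genes were called under every alternative. The 142 calls against Flt3ITD became 91 by edgeR, 1057 with its block, 991 by DESeq2, 1486 with the replicate block, 42 with no intensity trend, 0 with no filter and 24 to 104 when libraries were left out. The cause was not tested, except that fewer samples enter where libraries are left out. Among 131 named genes the replicate block ended no call and added 13, while edgeR ended 17 and added none. No called gene reversed. Of uncalled genes, rescaling turned Hoxa10 to -0.017, Hmgb2 to -0.10, Npm1 to -0.0087, Acly to -0.0063 and Rbbp4 to -0.11, and the edgeR block turned S100a8 to -0.044. Without single libraries the log2 difference crossed 0 in 17 uncalled genes, over the ranges Hoxa10 -0.17 to 0.39, Meis1 -0.69 to 0.13, S100a8 -0.46 to 2.23, Pcna -0.16 to 0.095, Hmgb2 -0.27 to 0.33, Npm1 -0.061 to 0.30, Ncl -0.24 to 0.056, Fos -0.18 to 1.35 and Jun -0.59 to 1.47, and Psma3 -0.14 to 0.085, Rbbp4 -0.13 to 0.18, Cdkn1c -1.19 to 0.16, Mki67 -0.28 to 0.089, Igj -1.40 to 3.30, Junb -0.81 to 1.55, Kit -0.31 to 0.18 and Nr4a1 -1.65 to 0.11. The median SE of a log2 difference was 0.44 for genes under 5 CPM and 0.18 from 100 to 500 CPM.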
